A study of Arabidopsis thaliana with 4 samples.

Results

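The genes described here are 46 nuclear photosynthesis genes of Arabidopsis thaliana, read in the funiculus, the stalk that joins each seed to the fruit wall. They were chosen by locus: the antenna genes LHCA and LHCB, the nuclear PSA and PSB subunit genes, the RBCS genes, and RCA, PRK, GAPA and GAPB. All 46 loci were found among the 37051 loci of the count table. By role they comprise 14 photosystem II antenna genes, 6 photosystem I antenna genes, 8 photosystem II subunit genes, 10 photosystem I subunit genes and 8 carbon fixation genes. The study compared seedstick (stk) mutants with wild-type plants of the Columbia ecotype. STK encodes a MADS-box transcription factor known for its role in ovule identity and funiculus development, and which stk allele was used is not in the labels. Both genotypes were grown at 22 °C with 16 h of light and 8 h of dark, and neither received a treatment named in the labels. Each library held mRNA of 100 pooled funiculi from flowers of stage 17, after fertilisation, and each genotype had 2 libraries that the labels call biological replicates. The question is which funiculus transcripts are altered in the mutant.

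Light is captured in the chloroplast by chlorophyll-binding antenna proteins, encoded in the nucleus by the LHC genes, and passed to the reaction centres of photosystems II and I. Photosystem II splits water, photosystem I reduces ferredoxin, and the Calvin cycle uses the energy gained to fix carbon dioxide through Rubisco. The reaction centre cores and the large Rubisco subunit are encoded in the chloroplast genome, whereas antenna proteins, many smaller photosystem subunits and the small Rubisco subunit come from nuclear genes imported after translation. In green leaves these nuclear genes are among the most abundant transcripts, and many of them respond together to light and to the state of the chloroplast. The count table held 0 organelle loci, so the plastid-encoded partners were not analysed here.

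Library totals were 4033589 and 12099218 counts in stk and 5757066 and 10229588 counts in wild type, and in every pair of values below replicate 1 comes before replicate 2. A count of 3 corresponded to 0.744 and 0.248 CPM, counts scaled to the library total, for stk and to 0.521 and 0.293 CPM for wild type, a floor that covers counting error only. Replicates differed far beyond counting noise, with a chi-square per degree of freedom of 54.5 between the stk libraries and 84.1 between the wild-type libraries. Across the 18092 genes tested, log2 CPM correlated at r = 0.777 between the stk libraries, at r = 0.753 between the wild-type libraries, at r = 0.697 between the replicate 1 libraries of the different genotypes and at r = 0.878 between their replicate 2 libraries. Each r is taken across genes, and genes do not count as independent samples. STK itself was read at 228 and 327 CPM in stk, against 361 and 591 CPM in wild type. Its log2 fold change of -0.72 ± 0.43 (SE) had an adjusted p of 1 in edgeR's quasi-likelihood test, so its count does not by itself check the genotype labels. All 6 funiculus markers, STK among them, were read in every library and had a sum of 843 and 689 CPM in stk and of 1652 and 1300 CPM in wild type.

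The photosynthesis genes were abundant in every funiculus library of both genotypes. Together they took 2.38% and 2.55% of all counts in the stk libraries, and 2.81% and 1.54% in the wild-type libraries. Per length of transcript, as TPM, which scales counts by exon length within a library, their median level was 497 and 529 TPM in stk and 553 and 339 TPM in wild type. The median over all 18092 genes tested was 18.8 and 20.5 TPM in stk, and 20.0 and 22.2 TPM in wild type. Among the 500 genes with the highest CPM of each library stood 27 and 31 of the 46 in stk, and 31 and 23 of them in wild type. The label of a green tissue rests here on these transcripts, since colour and chlorophyll were not measured. In such bulk tissue, fewer cells of a type and less RNA per cell cannot be told apart.

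Averaged over the 4 libraries, RBCS1A led the order at 3381 TPM and LHCB1.3 followed at 3112 TPM. Both encode textbook abundant proteins, a Rubisco small subunit and a major antenna protein of photosystem II. PSBR at 1538 TPM, LHCA4 at 1455, LHCB5 at 1186, LHCB3 at 1101, LHCA1 at 1053 and PSAK at 1014 TPM came next. Neighbours in this upper order overlapped in their ranges: RBCS1A spanned 2146 to 4823 TPM over the libraries and LHCB1.3 2062 to 4647 TPM. Of the genes with any count, the lowest levels were those of LHCA6 at 9.07 TPM and LHCB1.4 at 4.28 TPM, and LHCB1.5 had 0 counts in every library.

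**Figure D1:**
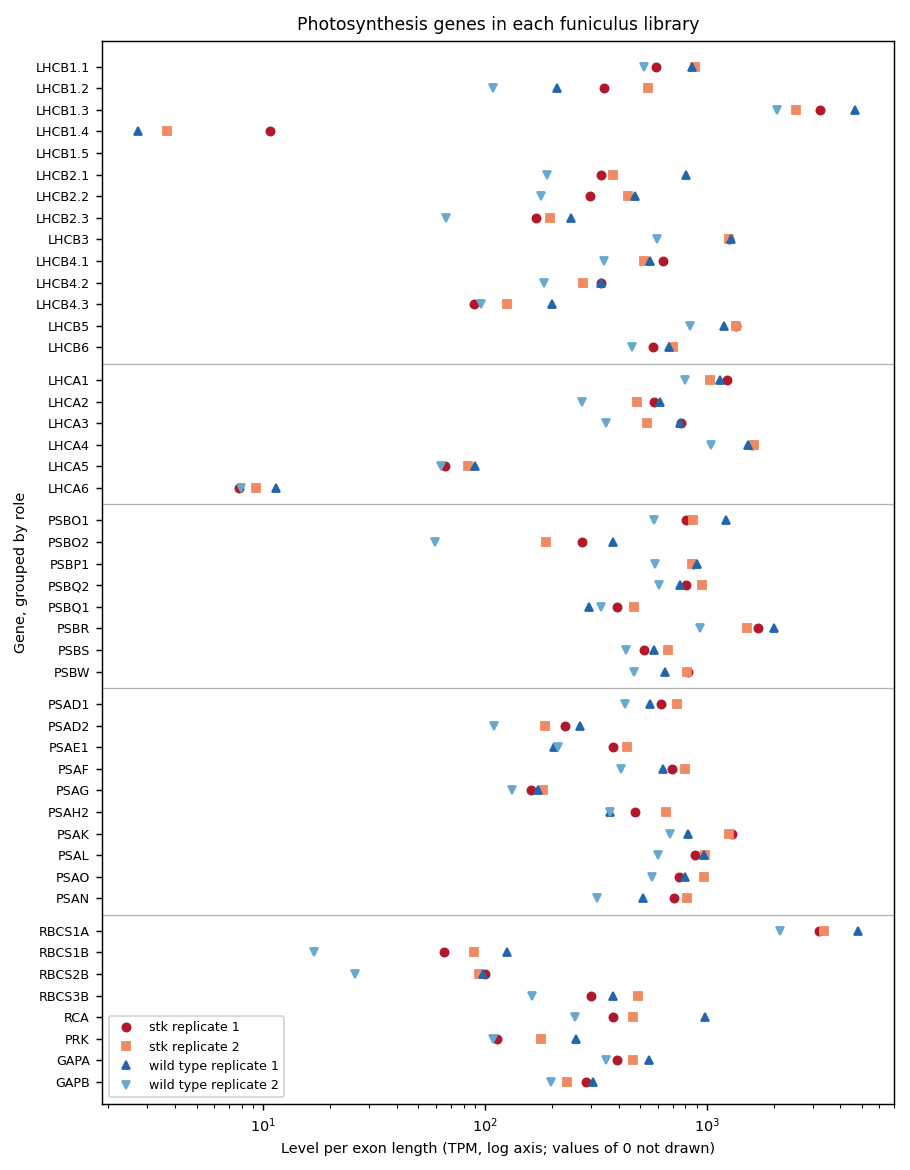
Level per exon length (TPM, log axis) of each photosynthesis gene in the 2 stk libraries (red and orange) and the 2 wild-type libraries (dark and light blue), grouped by role. Values of 0 are not drawn, among them that of LHCB1.4 in wild-type replicate 2. By CPM, wild-type replicate 2 is the lowest library for 40 of the 45 genes tested. The stk points mostly lie close together, but not for LHCB1.4, at 10.7 and 3.66 TPM.

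No photosynthesis gene differed between the genotypes past the threshold. The edgeR quasi-likelihood test at a Benjamini-Hochberg adjusted p under 0.05 called 0 of the 45 photosynthesis genes tested, against 1 of all 18092 genes (0.00553%), and the adjusted p of each of the 45 was 1. LHCB1.5 (AT2G34420) was left out of the test for want of counts. DESeq2 called 0 of the 45 and 160 of all genes (0.939%), and limma-voom called 0 of the 45 and 37 of all genes (0.205%). Without the filter on low counts edgeR called 0 of the 45 and 1.17% of all genes. With 1 library left out it also called 0 of them, at 0.0253% of all genes without stk replicate 1, 0.111% without stk replicate 2, 1.01% without wild-type replicate 1 and 0.346% without its replicate 2. Each of these fits has 1 library in a genotype, which is assumed to vary like the pair of the other genotype. At an unadjusted p under 0.05 edgeR held 2 of the 45, LHCB1.2 and PSAE1, and 3.36% of all genes. Both stood higher in stk, the direction of 2.22% of all genes at that p. The lowest adjusted p of any of the 46 genes over the alternative fits ranged from 0.0752, without wild-type replicate 1, to 1. With 2 libraries against 2, an exact permutation test of a single value cannot give a two-sided p below 0.333, and none is given below.

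The direction was mostly positive, but it turned on the wild-type libraries. Of the 45 genes, 36 (80.0%) had a positive log2 fold change, stk over wild type, against 45.8% of all genes tested. Their median was 0.27, against -0.08 over all genes. Without wild-type replicate 2, 18 of the 45 (40.0%) were positive and the median was -0.05, against 0.07 over all genes in that fit. Without wild-type replicate 1, 45 of the 45 were positive and the median was 0.82, against -0.04 over all genes. Leaving out stk replicate 1 left 36 positive, and leaving out stk replicate 2 left 32. A positive sign in every fit that included the gene, alternatives counted, was held by 18 of the 45 genes, 7 of them photosystem I subunit genes, and a negative sign throughout by 0. Both numbers equal those of the fit without wild-type replicate 2, in which 53.2% of all genes were positive. RBCS2B is counted among the 18 with a lowest value of 0.00. The fits reuse the same libraries, and the share of all genes that kept one sign was not counted.

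Both stk libraries lay above both wild-type libraries for 13 of the 45 photosynthesis genes (28.9%), against 14.1% of all genes tested. Both lay below for 0 of the 45, against 18.3% of all genes. The 13 were 6 of the 10 photosystem I subunit genes, 3 of the 8 photosystem II subunit genes, 3 of the 13 photosystem II antenna genes tested, 1 of the 6 photosystem I antenna genes and 0 of the 8 carbon fixation genes. The count was also 13 with TMM-scaled library sizes, where 15.9% of all genes lay that way.

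**Figure D2:**
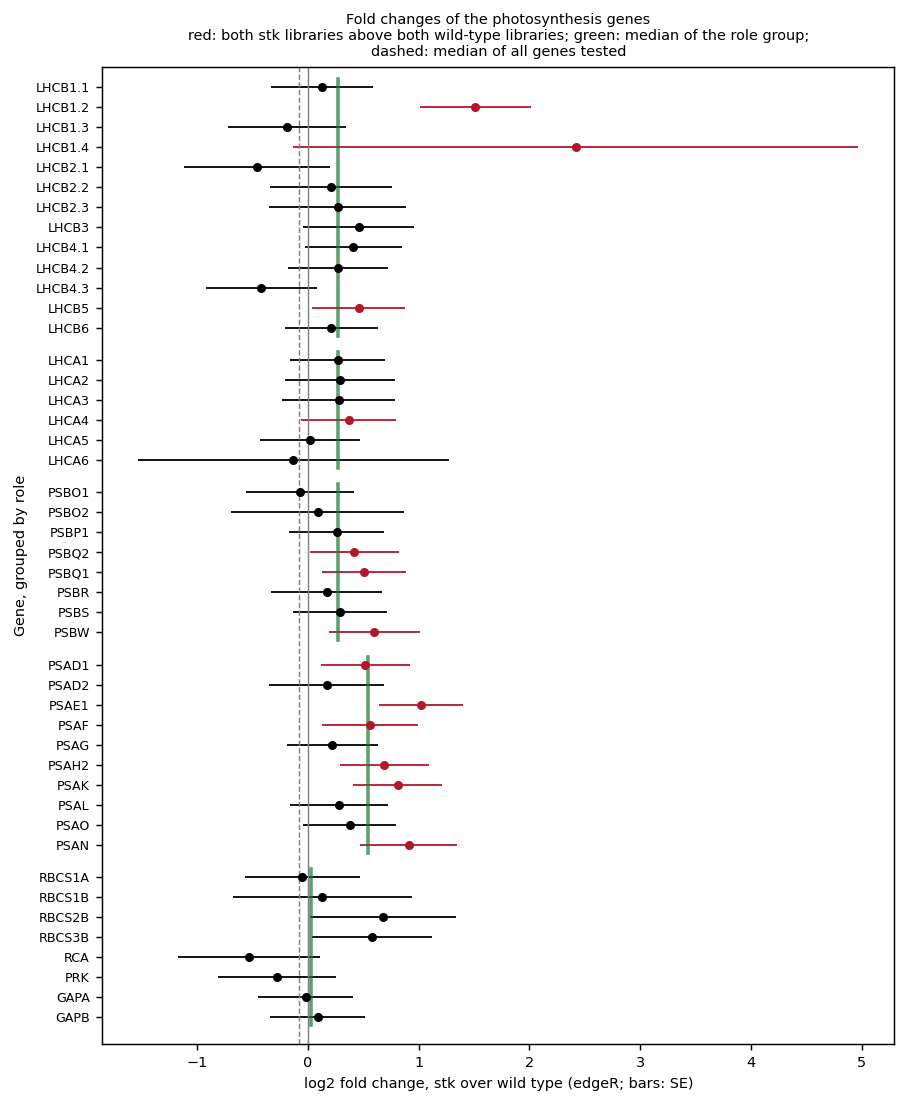
Log2 fold change, stk over wild type, of each of the 45 photosynthesis genes tested (edgeR, bars show 1 SE), grouped by role with the group median in green and the median of all genes as a dashed line. The photosystem I subunit genes all lie right of 0 with a median of 0.54, and the carbon fixation genes lie on both sides with a median of 0.03.

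The major antenna of photosystem II is a trimer of LHCB1, LHCB2 and LHCB3 proteins. LHCB1.1, LHCB1.2 and LHCB1.3 are neighbouring genes on chromosome 1, also known as CAB2, CAB3 and CAB1, and their coding sequences of 804 bases are 95.6% to 96.4% identical to each other. The first 120 coding bases of the 3 genes, read from the TAIR10.1 assembly, are shown because the counts of these copies rest on such small differences. Capitals mark the bases that differ from LHCB1.3, 7 in LHCB1.1 and 6 in LHCB1.2. The count table names no genome build, so the coordinates are those of TAIR10.1 alone. They are chr1:10475773-10475892 on the minus strand for LHCB1.1, chr1:10473127-10473246 on the minus strand for LHCB1.2 and chr1:10478071-10478190 on the plus strand for LHCB1.3.
LHCB1.1: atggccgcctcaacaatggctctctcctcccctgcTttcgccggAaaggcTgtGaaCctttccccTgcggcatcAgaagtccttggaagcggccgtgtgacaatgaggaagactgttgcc
LHCB1.2: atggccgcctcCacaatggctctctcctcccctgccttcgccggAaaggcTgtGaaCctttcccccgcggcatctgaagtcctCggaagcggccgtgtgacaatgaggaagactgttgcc
LHCB1.3: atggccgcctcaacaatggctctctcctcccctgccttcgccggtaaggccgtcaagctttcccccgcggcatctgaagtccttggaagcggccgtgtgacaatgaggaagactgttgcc

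LHCB1.2 (AT1G29910) had the largest positive fold change of the photosynthesis genes after the barely read LHCB1.4. It stood at 266 and 435 CPM in stk, against 163 and 85.9 CPM in wild type. Both stk values exceeded both wild-type values, and the log2 fold change was 1.51 ± 0.50 (SE), with a mean of 350 ± 119 CPM in stk and 124 ± 54.2 CPM in wild type (SD, n = 2 each). LHCB1.3 (AT1G29930), the most abundant antenna gene, had 2514 and 2023 CPM in stk, against 3606 and 1645 CPM in wild type. Its stk values lay between the wild-type values, and it ranked 7th and 6th of all genes in the stk libraries and 6th and 5th in the wild-type libraries. LHCB1.1 (AT1G29920) had 488 and 760 CPM in stk, against 713 and 443 CPM in wild type, so its groups overlapped. The log2 fold changes were -0.19 ± 0.53 for LHCB1.3 and 0.13 ± 0.46 for LHCB1.1 (SE). Leaving out wild-type replicate 1 turned LHCB1.3 to 0.61, leaving out wild-type replicate 2 turned LHCB1.1 to -0.21 and leaving out stk replicate 2 turned it to -0.19, while LHCB1.2 ranged from 1.09 to 2.16.

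The remaining LHCB1 copies were barely read. LHCB1.4 (AT2G34430) had 8.93 and 3.14 CPM in stk, against 2.26 and 0 CPM in wild type, from 36, 38, 13 and 0 counts. Its log2 fold change of 2.42 ± 2.55 (SE) was the largest of the photosynthesis genes, and its error was larger than the value. LHCB1.5 had 0 counts in all 4 libraries. In the TAIR10.1 annotation 0 of its exon bases are free of another gene, since the non-coding gene AT2G08665 lies over it on the opposite strand and also had 0 counts. Among the 368 protein-coding loci with no free exon base, 367 (99.7%) had 0 counts in every library, against 5433 of 27076 other loci (20.1%). The 0 of LHCB1.5 is therefore no measurement of its level.

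In the LHCB2 genes the wild-type libraries lay on either side of the stk libraries. LHCB2.1 (AT2G05100) had 297 and 348 CPM in stk, against 716 and 173 CPM in wild type, and its log2 fold change of -0.46 ± 0.66 (SE) was the lowest of the antenna genes. That value became 1.04 without wild-type replicate 1. LHCB2.2 (AT2G05070) had 215 and 331 CPM in stk, against 341 and 133 CPM in wild type. LHCB2.3 (AT3G27690) had 158 and 189 CPM in stk, against 226 and 63.4 CPM in wild type. In all these genes wild-type replicate 1 was the highest library and wild-type replicate 2 the lowest. LHCB3 (AT5G54270), whose protein occurs in trimers tied closely to the photosystem II core, had 988 and 1026 CPM in stk, against 1009 and 481 CPM in wild type. Both stk libraries and wild-type replicate 1 were close together, and the log2 fold change of 0.46 ± 0.50 (SE) became -0.02 without wild-type replicate 2.

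The minor antenna proteins LHCB4, LHCB5 and LHCB6, also called CP29, CP26 and CP24, link the trimers to the core as monomers. LHCB5 (AT4G10340) was the most abundant of them per length, at 1186 TPM on average, with 1191 and 1231 CPM in stk, against 1049 and 758 CPM in wild type. Its groups did not overlap, and the log2 fold change was 0.46 ± 0.42 (SE). LHCB6 (AT1G15820) had 435 and 555 CPM in stk, against 513 and 358 CPM in wild type. LHCB4.1 (AT5G01530) had 560 and 477 CPM in stk, against 487 and 311 CPM in wild type. In LHCB6 and LHCB4.1 the lower stk library lay below wild-type replicate 1, so their groups overlapped, as did those of LHCB4.2 (AT3G08940) at 287 and 247 CPM in stk and 288 and 164 CPM in wild type. LHCB4.3 (AT2G40100), a copy known from Arabidopsis plants under long high light, had 82.1 and 119 CPM in stk, against 183 and 89.9 CPM in wild type. It and LHCB2.1 and LHCB1.3 were the antenna genes of photosystem II with a negative fold change, and the other 10 tested were positive. The median of the 13 was 0.27, and it became 0.88 without wild-type replicate 1 but -0.12 without wild-type replicate 2.

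The antenna of photosystem I is a belt of LHCA1 to LHCA4, and LHCA5 and LHCA6 are known in Arabidopsis as linkers between photosystem I and the chloroplast NDH complex. LHCA4 (AT3G47470) stood at 1315 and 1387 CPM in stk, against 1254 and 878 CPM in wild type. It was the 1 gene of these 6 whose groups did not overlap, with a log2 fold change of 0.37 ± 0.43 (SE) that was 0.09 without wild-type replicate 2, against 0.76 without replicate 1 of wild type. LHCA1 (AT3G54890), with 990 and 864 CPM in stk, against 923 and 660 CPM in wild type, and LHCA3 (AT1G61520), with 790 and 571 CPM in stk, against 774 and 371 CPM in wild type, both had overlapping groups. Without wild-type replicate 2 their log2 fold changes of 0.27 and 0.28 became -0.01 and -0.19. LHCA2 (AT3G61470) had 514 and 445 CPM in stk, against 548 and 249 CPM in wild type. The linker genes had the lowest levels of these 6 genes, at 75.8 TPM on average for LHCA5 and 9.07 TPM for LHCA6. LHCA5 (AT1G45474) had 44.9 and 58.8 CPM in stk, against 60.6 and 44.1 CPM in wild type. LHCA6 (AT1G19150) had 5.70 and 7.03 CPM in stk, against 8.34 and 5.96 CPM in wild type. Of the 6 genes 5 were positive, with a median of 0.27 that became 0.70 without wild-type replicate 1 but -0.20 without wild-type replicate 2.

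Among the photosystem II subunits, PSBO, PSBP and PSBQ form the lumenal cap of the water-splitting centre. PSBO1, PSBP1 and PSBQ2 were read at like levels per length, 868, 802 and 780 TPM on average. PSBO1 (AT5G66570) had 768 and 855 CPM in stk, against 1164 and 567 CPM in wild type. PSBP1 (AT1G06680) had 745 and 758 CPM in stk, against 769 and 514 CPM in wild type. Both had overlapping groups, and log2 fold changes of -0.07 ± 0.49 for PSBO1 and 0.26 ± 0.43 for PSBP1 (SE). PSBO2 (AT3G50820), the minor copy, spread most, with 228 and 164 CPM in stk, against 318 and 51.1 CPM in wild type. The PSBQ pair differed from the rest of the cap in that their groups did not overlap. PSBQ2 (AT4G05180) had 648 and 793 CPM in stk, against 604 and 503 CPM in wild type. PSBQ1 (AT4G21280) had 248 and 306 CPM in stk, against 186 and 216 CPM in wild type, and it was the 1 photosystem II subunit gene with wild-type replicate 1 below wild-type replicate 2. Their log2 fold changes were 0.42 ± 0.40 for PSBQ2 and 0.51 ± 0.38 for PSBQ1 (SE), neither past the threshold.

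PSBR (AT1G79040), which aids assembly of the lumenal cap, had 844 and 781 CPM in stk, against 989 and 474 CPM in wild type. PSBS (AT1G44575), the sensor that switches on heat dissipation in strong light, had 598 and 787 CPM in stk, against 657 and 505 CPM in wild type. The groups of these genes overlapped. PSBW (AT2G30570), a small subunit that steadies the supercomplex with the antenna, had 497 and 508 CPM in stk, against 390 and 291 CPM in wild type. Its stk values were close together and above both wild-type values, and its log2 fold change of 0.60 ± 0.41 (SE) was the largest of the photosystem II subunit genes. The median of the 8 genes was 0.27, with 7 positive. It became 0.67 without wild-type replicate 1 but 0.00 without wild-type replicate 2, where PSBP1 and PSBR turned to -0.05 and -0.30 and PSBO2 to -0.71. PSBO1 turned to 0.65 without wild-type replicate 1, and PSBO2 also to -0.19 without stk replicate 1.

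The photosystem I subunit genes stood higher in stk as a group by the largest median of the 5 roles, 0.54 on the log2 scale, and all 10 were positive, although none passed the test. The median became 0.89 without wild-type replicate 1 but 0.28 without wild-type replicate 2, the fit in which 7 of the 10 were positive. In each of the other fits 10 of 10 were positive. PSAD, PSAE and the plastid-encoded PSAC form the ridge on which ferredoxin docks. PSAE1 (AT4G28750) had 191 and 228 CPM in stk, against 103 and 111 CPM in wild type. Its lower stk value was well above its higher wild-type value, its means were 210 ± 26.0 CPM in stk and 107 ± 5.43 CPM in wild type (SD, n = 2 each), and its log2 fold change of 1.02 ± 0.38 (SE) ranged from 0.91 to 1.13 when any 1 library was left out. PSAD1 (AT4G02770) had 448 and 543 CPM in stk, against 396 and 314 CPM in wild type, with no overlap. PSAD2 (AT1G03130), the minor copy, had 138 and 117 CPM in stk, against 162 and 68.0 CPM in wild type, with overlap, and its log2 fold change of 0.17 became -0.36 without wild-type replicate 2.

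The lumenal subunits PSAF and PSAN take part in the docking of plastocyanin. PSAF (AT1G31330) had 529 and 629 CPM in stk, against 483 and 321 CPM in wild type. PSAN (AT5G64040) had 458 and 543 CPM in stk, against 330 and 212 CPM in wild type. In both genes the groups did not overlap, with log2 fold changes of 0.56 ± 0.43 for PSAF and 0.91 ± 0.44 for PSAN (SE). PSAK and PSAG sit where the LHCA belt meets the core. PSAK (AT1G30380) had 631 CPM in each stk library, against 400 and 341 CPM in wild type. Its stk values were almost equal and its log2 fold change of 0.81 ± 0.40 (SE) ranged from 0.64 to 1.03 when any 1 library was left out. PSAG (AT1G55670) had 79.6 and 93.7 CPM in stk, against 85.8 and 66.6 CPM in wild type, so its groups overlapped.

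PSAH, PSAL and PSAO lie on the side of photosystem I where mobile antenna trimers bind. PSAH2 (AT1G52230) had 210 and 302 CPM in stk, against 161 and 167 CPM in wild type. PSAL (AT4G12800) had 637 and 731 CPM in stk, against 701 and 446 CPM in wild type. PSAO (AT1G08380) had 386 and 520 CPM in stk, against 411 and 301 CPM in wild type. Only the groups of PSAH2 did not overlap among these 3, and its log2 fold change was 0.69 ± 0.40 (SE). That of PSAL was 0.28 ± 0.44 (SE) and became -0.05 without wild-type replicate 2. In 8 of the 10 photosystem I subunit genes the highest library was stk replicate 2, and in 1 it was wild-type replicate 1.

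Carbon fixation genes showed no common direction. RBCS1A (AT1G67090), the main small-subunit gene of Rubisco, had 2566 and 2790 CPM in stk, against 3858 and 1765 CPM in wild type. RCA (AT2G39730), the activase that frees Rubisco from bound sugars, had 505 and 637 CPM in stk, against 1302 and 344 CPM in wild type. The stk values of both genes lay between the wild-type values, with log2 fold changes of -0.05 ± 0.52 for RBCS1A and -0.53 ± 0.64 for RCA (SE). Without wild-type replicate 1 these became 0.74 and 0.87. GAPA and GAPB encode the subunits of the NADPH-using glyceraldehyde-3-phosphate dehydrogenase. GAPA (AT3G26650) had 436 and 531 CPM in stk, against 604 and 398 CPM in wild type, and GAPB (AT1G42970) had 333 and 284 CPM in stk, against 357 and 239 CPM in wild type. PRK (AT1G32060), which regenerates the acceptor of carbon dioxide, had 136 and 221 CPM in stk, against 306 and 132 CPM in wild type.

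RBCS3B, RBCS2B and RBCS1B, which lie next to each other on chromosome 5, were far below RBCS1A per length, at 333, 79.4 and 74.4 TPM on average against 3381 TPM. RBCS3B (AT5G38410) had 268 and 452 CPM in stk, against 337 and 149 CPM in wild type, and a log2 fold change of 0.58 ± 0.54 (SE). RBCS2B (AT5G38420) had 59.3 and 57.6 CPM in stk, against 57.7 and 15.6 CPM in wild type, and a log2 fold change of 0.68 ± 0.66 (SE), the largest of the carbon fixation genes. RBCS1B (AT5G38430) had 78.6 and 110 CPM in stk, against 151 and 20.8 CPM in wild type. RBCS2B differed from its stk values in wild-type replicate 2 alone, and its log2 fold change was 0.00 without that library. RBCS3B was likewise at 0.07 without wild-type replicate 2 and at 0.19 without stk replicate 2. The median of the 8 carbon fixation genes was 0.03, with 4 positive and 4 negative. It became 0.80 when wild-type replicate 1 was left out and -0.44 when wild-type replicate 2 was, while GAPA, at -0.02 with all libraries, ranged from -0.34 to 0.42 as libraries were left out.

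Summed over roles, the photosystem I subunit genes were the 1 role whose genotypes did not overlap. Of all genes tested, 14.1% had both stk values above both wild-type values in CPM. That 1 role lay this way is near that background and is no separate result. Their sum was 3708 and 4337 CPM in stk, against 3233 and 2347 CPM in wild type. The means were 4023 ± 445 CPM in stk and 2790 ± 626 CPM in wild type (SD, n = 2 each). The lower stk sum exceeded the higher wild-type sum. The photosystem II antenna genes summed to 7490 and 7744 CPM in stk, against 9295 and 4704 CPM in wild type. Carbon fixation genes summed to 4382 and 5084 CPM in stk, against 6973 and 3064 CPM in wild type. For these roles both stk libraries stood between the wild-type libraries. All 46 genes summed to 23817 and 25451 CPM in stk and to 28146 and 15443 CPM in wild type, so the stk sums differed 1.07-fold from each other and the wild-type sums 1.82-fold.

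**Figure D3:**
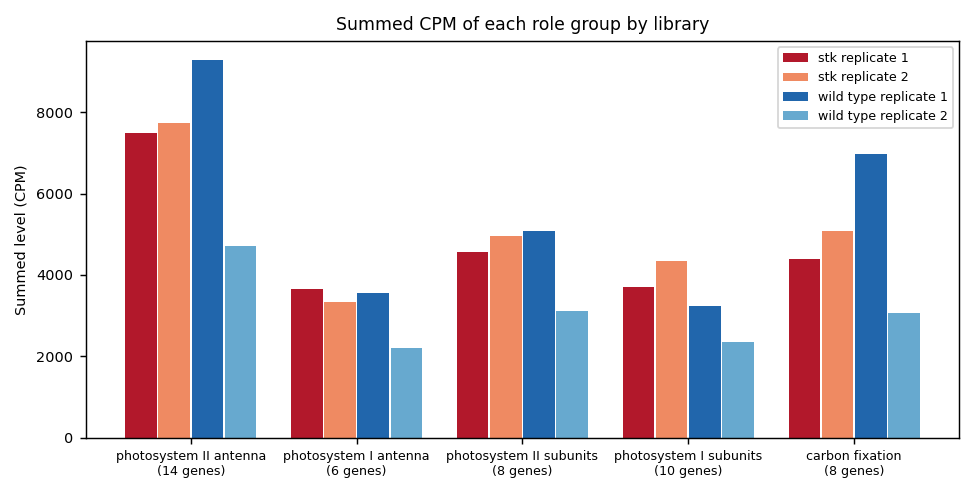
Summed CPM of the genes of each role in the 2 stk libraries (red and orange) and the 2 wild-type libraries (dark and light blue). Wild-type replicate 2 is the lowest bar in each role, and in the photosystem I subunits both stk bars (3708 and 4337 CPM) stand above both wild-type bars.

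Shares within the photosynthesis transcripts, which do not depend on scaling between libraries, separated the genotypes little. Photosystem I subunit genes made up 15.6% and 17.0% of the members' counts in stk, against 11.5% and 15.2% in wild type. Carbon fixation genes made up 18.4% and 20.0% in stk, against 24.8% and 19.8% in wild type. The first of these shares did not overlap between genotypes but its closest values differed by less than the wild-type spread, and the second overlapped. Photosystem II antenna genes held 31.4% and 30.4% in stk, against 33.0% and 30.5% in wild type. In wild-type replicate 1 the share of carbon fixation was the highest and that of photosystem I subunits the lowest of the 4 libraries.

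The wild-type replicates differed from each other by more than the genotypes did at the median. Among the 44 photosynthesis genes that were tested and had a count above 0 in every library, wild-type replicate 1 was above wild-type replicate 2 for 41 (93.2%), against 43.1% of all genes so compared. The median ratio was 1.57-fold over these 44 genes and 0.90-fold over all genes. It was 2.29-fold for carbon fixation, 1.96-fold for photosystem II antenna, 1.42-fold for photosystem II subunits, 1.41-fold for photosystem I antenna and 1.33-fold for photosystem I subunits. RBCS1B at 7.23-fold and PSBO2 at 6.21-fold had the widest gaps, and PSBQ1, PSAE1 and PSAH2 had the opposite order at 0.86, 0.93 and 0.97-fold. Wild-type replicate 2 was the lowest library for 40 of the 45 tested genes (88.9%), against 16.0% of all genes. Wild-type replicate 1 was the highest for 20 of them (44.4%), against 25.0% of all genes.

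The stk replicates were closer together. Their median absolute log2 ratio was 0.26 for the photosynthesis genes and 0.64 for all genes, whereas between the wild-type replicates it was 0.65 for the photosynthesis genes and 0.61 for all genes. The stk libraries thus lay closer together on these genes than on the transcriptome at large, and the wild-type libraries did not. The median level of all genes was far lower, where counting error widens ratios, and no genes of like level were compared.

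**Figure D4:**
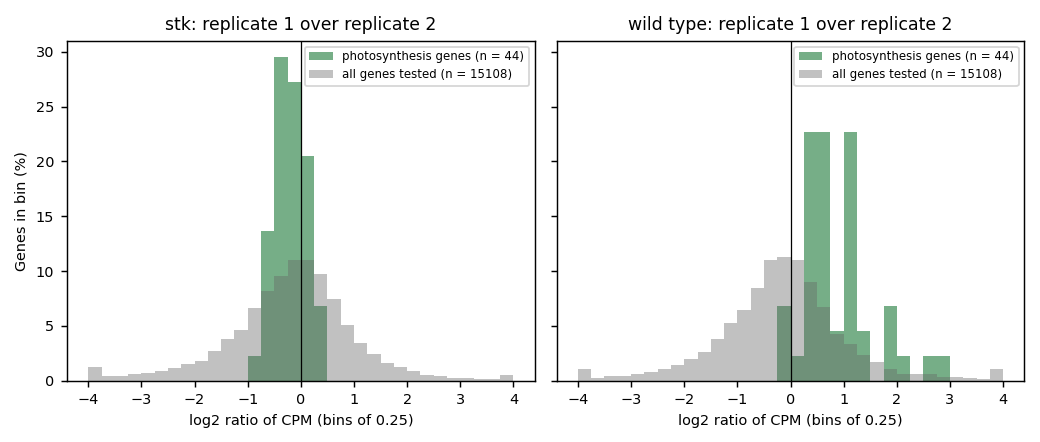
Distribution of the log2 ratio of replicate 1 over replicate 2 in stk (left) and wild type (right), in bins of 0.25, for the 44 photosynthesis genes (green) and all 15108 genes compared (grey), as a percent of each. The green bars lie near 0 in stk and are shifted to the right in wild type, with a median of 0.65.

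Within the LHCB1 family, both ratios that hold LHCB1.2 did not overlap between the genotypes. LHCB1.2 also had the lowest unadjusted p of the photosynthesis genes in edgeR, so its ratios are no separate result. LHCB1.2 counts were 0.544 and 0.572 of LHCB1.1 counts in stk, against 0.228 and 0.194 in wild type. Against LHCB1.3 the ratio was 0.106 and 0.215 in stk, against 0.0451 and 0.0522 in wild type. LHCB1.2 thus held 8.23% and 13.8% of the family's TPM in stk, against 3.68% and 4.03% in wild type. LHCB1.1 over LHCB1.3 overlapped, at 0.194 and 0.375 in stk and 0.198 and 0.269 in wild type. These ratios compare genes within a library, so a difference in level common to all copies does not enter them. The gap between the wild-type libraries was not common to all copies, at 6.21-fold for PSBO2 and 2.05-fold for PSBO1.

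Of the 11 ratios between copies compared, 4 did not overlap between genotypes, both LHCB1.2 ratios, which share that gene, and the following pair. Of all genes tested, 14.1% had both stk values above both wild-type values in CPM and 18.3% had them below, so the number of such ratios is near that background and is no result about the copies. LHCB4.3 over LHCB4.1 was 0.147 and 0.25 in stk, against 0.375 and 0.289 in wild type. RBCS3B over RBCS1A was 0.105 and 0.162 in stk, against 0.0874 and 0.0842 in wild type. The other 7 ratios overlapped, among them PSBO2 over PSBO1, which was 0.297 and 0.191 in stk and 0.273 and 0.0901 in wild type. RBCS1A held 83.3% to 91.3% of the TPM of its family in every library.

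**Figure D5:**
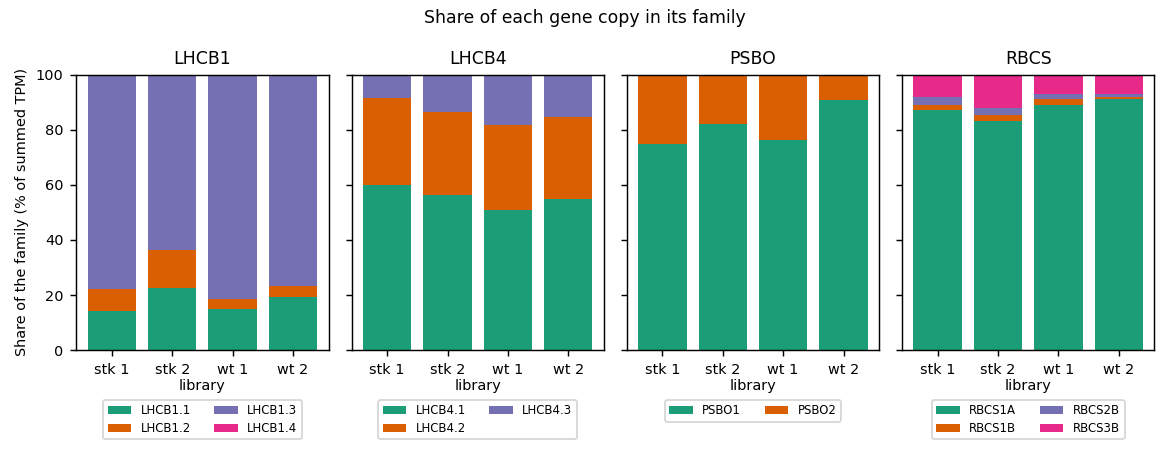
Share of each gene copy in the summed TPM of its family (percent) for LHCB1, LHCB4, PSBO and RBCS in the 2 stk and the 2 wild-type libraries. LHCB1.2 takes 8.23% and 13.8% of the LHCB1 family in stk and 3.68% and 4.03% in wild type, and RBCS1A dominates its family throughout.

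Copies this similar limit what the counts can resolve, since the counting may have divided or dropped reads that fit several copies, and its rule is not given in the sources used here. Of the exon windows of 50 bases, 79.5% of LHCB1.1, 89.4% of LHCB1.2 and 83.0% of LHCB1.3 occur once in the TAIR10.1 genome. With windows of 100 bases these shares were 95.6%, 98.5% and 96.7%. The values were 70.5% and 76.5% at 50 bases for LHCB2.2 and LHCB2.1, and RBCS1B and RBCS2B share 97.3% of their coding bases. The photorespiration gene PGLP1 (AT5G36700) and AT5G36790 had 0.0% of windows occurring once at either size. Their counts were 0 and 3 for PGLP1 and 27 and 16 for AT5G36790 in stk. In wild type they were 0 and 0, and 0 and 4. The counting rule was not tested. Overlap with other genes touched other members. Of the exon bases of PSAG 38.6% were free of another annotated gene, of LHCB2.3 59.4%, of PSAE1 65.9%, of PSAH2 75.2% and of LHCB6 79.6%. Since 99.7% of protein-coding loci with no free exon base had 0 counts, reads in shared bases were apparently not counted. The TPM of these members still divides by their full exon length. The library kit does not mark strand, so reads of a gene and its antisense partner cannot be told apart. The part of such overlaps in the fold changes was not tested.

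Promoters of the photosynthesis genes were compared after the values were seen. Whether their motifs bear on any difference between libraries or roles was not tested. The motif CCAATC, linked in Arabidopsis to genes that GOLDEN2-LIKE (GLK) transcription factors regulate, was searched with the G-box CACGTG and the I-box GATAAG, known from light-responsive promoters. Both strands were read in the 250 bases before each annotated gene start in TAIR10.1, and none of the motifs contains another. CCAATC occurred in 10 of the 20 antenna promoters, in 2 of the 26 promoters of subunit and carbon fixation genes (7.69%) and in 2807 of 27443 promoters of all protein-coding genes (10.2%). It was in 7 of 14 photosystem II antenna promoters, 3 of 6 photosystem I antenna promoters and 0 of 10 photosystem I subunit promoters. It was also in 1 of 8 photosystem II subunit promoters and 1 of 8 carbon fixation promoters. The G-box was in 9 of the 46 promoters (19.6%), against 6.49% of all, and the I-box in 11 of the 46 (23.9%), against 12.3% of all. A match describes letters in a window and does not show that a factor binds there.

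Shown are 5 of these promoters: that of the most abundant antenna gene, the antenna pair that holds CCAATC at 2 places beside a G-box, the photosystem II subunit gene with all 3 motifs, and the carbon fixation gene with the most I-boxes. Capitals mark the motifs, GATTGG and CTTATC being CCAATC and GATAAG read on the other strand. Each runs 5′ to 3′ towards the gene, at chr1:10477635-10477884 on the plus strand for LHCB1.3, chr5:208616-208865 on the plus strand for LHCB4.1 and chr3:17495034-17495283 on the minus strand for LHCA4. PSBQ2 is at chr4:2673244-2673493 on the minus strand and RBCS2B at chr5:15382072-15382321 on the minus strand.
LHCB1.3 promoter: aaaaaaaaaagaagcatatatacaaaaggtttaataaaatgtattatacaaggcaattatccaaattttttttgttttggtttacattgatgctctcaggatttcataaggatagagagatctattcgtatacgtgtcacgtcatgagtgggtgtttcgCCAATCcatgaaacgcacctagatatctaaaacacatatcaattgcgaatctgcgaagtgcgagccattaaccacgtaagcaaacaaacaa
LHCB4.1 promoter: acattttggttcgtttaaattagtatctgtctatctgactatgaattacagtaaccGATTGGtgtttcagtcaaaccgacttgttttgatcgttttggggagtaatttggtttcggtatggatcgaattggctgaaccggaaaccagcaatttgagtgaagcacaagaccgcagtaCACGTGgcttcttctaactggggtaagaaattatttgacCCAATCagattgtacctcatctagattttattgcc
LHCA4 promoter: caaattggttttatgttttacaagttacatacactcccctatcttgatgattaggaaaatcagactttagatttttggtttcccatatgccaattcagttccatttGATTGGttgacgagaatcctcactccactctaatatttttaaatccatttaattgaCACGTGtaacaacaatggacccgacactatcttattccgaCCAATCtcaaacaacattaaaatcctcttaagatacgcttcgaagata
PSBQ2 promoter: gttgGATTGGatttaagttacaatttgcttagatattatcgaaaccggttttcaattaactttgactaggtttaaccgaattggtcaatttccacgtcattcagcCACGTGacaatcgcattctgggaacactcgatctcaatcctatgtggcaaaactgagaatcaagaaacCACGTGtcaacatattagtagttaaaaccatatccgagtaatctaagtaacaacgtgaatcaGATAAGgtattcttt
RBCS2B promoter: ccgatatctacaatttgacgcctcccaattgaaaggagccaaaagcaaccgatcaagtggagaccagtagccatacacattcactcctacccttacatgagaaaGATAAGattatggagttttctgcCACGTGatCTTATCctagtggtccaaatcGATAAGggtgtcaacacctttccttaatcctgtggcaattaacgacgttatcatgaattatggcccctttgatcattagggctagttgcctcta

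Of 16 regulators of these genes 11 had enough counts for the test, and edgeR, DESeq2 and limma-voom called 0 of them, with 0 at an unadjusted p under 0.05 in edgeR. GLK2, 1 of the pair of GLK factors that drive antenna and chlorophyll synthesis genes, had 7.19 and 18.8 CPM in stk, against 21.2 and 43.5 CPM in wild type. Both stk values were below both wild-type values, with a log2 fold change of -1.25 ± 0.76 (SE). Of the 11 tested regulators 3 lay below in this way, against 18.3% of all genes, and 2 lay above, against 14.1% of all genes. The others below were GUN1 and HYH, the latter at 0 and 6.45 CPM in stk, against 17.0 and 17.3 CPM in wild type. GLK1 had 0 and 1.16 CPM in stk, against 0 and 0.684 CPM in wild type. The GATA factors GNC and CGA1, which also promote greening, were at 0 in 3 of the 4 libraries and under 1 CPM in wild-type replicate 2. Values of 0 allow up to 0.744 CPM in stk replicate 1, the shallowest library. HY5, a light-signalling factor that promotes greening, had 17.9 and 13.1 CPM in stk, against 17.9 and 8.80 CPM in wild type. The sigma factor gene SIG1, for transcription inside the plastid, had the highest mean level per length of the 16 regulators, at 26.9 and 41.4 TPM in stk, against 37.6 and 37.6 TPM in wild type.

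The rest of the photosynthetic pathway was read from lists of 9 to 16 genes each, in which edgeR, DESeq2 and limma-voom called 0 genes and 0 had an unadjusted p under 0.05 in edgeR. Of 10 other nuclear photosystem genes 9 were positive, with a median log2 fold change of 0.22. PSBX, the most abundant, had 358 and 446 CPM in stk, against 334 and 272 CPM in wild type. PSAE2, the partner copy of PSAE1, had 178 and 143 CPM in stk, against 156 and 114 CPM in wild type, and overlapped where PSAE1 did not. In electron transport and ATP synthase, 6 of 12 were positive with a median of -0.01. The plastocyanin gene PETE2 had 423 and 610 CPM in stk, against 494 and 325 CPM in wild type. Of the other Calvin cycle genes 6 of 12 were positive with a median of 0.03, and FBA2, an aldolase and the most abundant, had 289 and 487 CPM in stk, against 713 and 581 CPM in wild type. In photorespiration 3 of 9 tested were positive with a median of -0.03, in chlorophyll synthesis 6 of 15 with a median of -0.10, and in chlorophyll breakdown 3 of 9 with a median of -0.20. The sign of these medians turned on single libraries. Without wild-type replicate 1 the median was 0.64 for the other photosystem genes, 0.48 for electron transport, 0.47 for the other Calvin cycle genes and 0.69 for photorespiration. Without wild-type replicate 2 it was -0.06, -0.27, -0.32 and -0.62 for the same lists in that order. For chlorophyll breakdown the median became 0.19 when stk replicate 1 was dropped and 0.37 when wild-type replicate 2 was dropped. For chlorophyll synthesis it stayed between -0.27 and 0.04 with any 1 library left out.

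Wild-type replicate 1 was above wild-type replicate 2 for 11 of 12 electron transport genes, 11 of 12 other Calvin cycle genes and 9 of 9 photorespiration genes. For chlorophyll synthesis it was above for 7 of 14, and for chlorophyll breakdown for 3 of 8, beside 43.1% of all genes with counts in every library. The 16 chlorophyll synthesis genes still summed to their lowest level in wild-type replicate 2, at 1984 and 2027 CPM in stk, against 2175 and 1692 CPM in wild type. Whether these lists differ from each other was not tested. GUN5, the large subunit of magnesium chelatase, had 487 and 438 CPM in stk, against 655 and 304 CPM in wild type. PORA, a protochlorophyllide reductase known from etiolated seedlings, had 0 and 0.826 CPM in stk, against 5.91 and 13.8 CPM in wild type. Its log2 fold change of -4.35 ± 2.2 (SE) rested on few counts. PORB had 205 and 38.4 CPM in stk, against 38.4 and 69.6 CPM in wild type, where stk replicate 1 alone was high.

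Markers of other cell types differed between libraries of the same genotype as well. The 6 embryo and endosperm storage genes summed to 72.1 and 1.49 CPM in stk and to 236 and 1.37 CPM in wild type. Of these genes 4 were at 0 in stk replicate 2, 1 in wild-type replicate 1 and 2 in wild-type replicate 2. The 6 guard cell genes summed to 18.6 and 226 CPM in stk and to 44.1 and 352 CPM in wild type. SLAC1 was at 0 in all 4 libraries, FAMA was at 0 in both replicate 1 libraries, and MYB60 and TGG1 were at 0 in stk replicate 1. The 5 xylem genes summed to 1201 and 151 CPM in stk and to 207 and 68.4 CPM in wild type, and the 4 phloem genes to 917 and 467 CPM in stk and to 958 and 261 CPM in wild type. No xylem or phloem marker was at 0. Xylem and phloem sums were lowest in wild-type replicate 2, as was the sum of the photosynthesis genes, and the guard cell sum was highest there. A few genes carried these sums. The potassium channel genes KAT1 and KAT2 had 166 and 179 CPM of the guard cell sum in wild-type replicate 2, while MYB60 was highest in wild-type replicate 1 and TGG1 in stk replicate 2. The sucrose transporter gene SUC2 carried the phloem sum, and 2 of the 4 phloem genes were lowest in wild-type replicate 2. Both stk values lay above both wild-type values for 2 of the 4 phloem genes and 1 of the 5 xylem genes, CESA8. Of all genes tested, 14.1% lay that way. The phloem genes SUC2 and APL and the xylem gene XCP1 had negative log2 fold changes of -0.13, -0.38 and -0.53, with overlapping groups. SEOR1, a sieve element protein gene, had 67.9 and 48.6 CPM in stk, against 2.61 and 5.28 CPM in wild type. Its log2 fold change of 3.94 ± 0.65 (SE) had an adjusted p of 0.329 in edgeR and 0.544 in limma-voom. The adjusted p was 4.64e-05 in DESeq2, which called 0.939% of all genes. It was 0.00964 in edgeR with a replicate block, which called 0.934% of all genes. SEOR2 had 168 and 90.8 CPM in stk, against 36.0 and 30.3 CPM in wild type. Its adjusted p was 0.635 in edgeR, 0.127 in limma-voom, 0.049 in DESeq2 and 0.0328 in edgeR with the block. The secondary wall cellulose synthase genes CESA7 and CESA8 passed with the block alone, at adjusted p of 0.00905 and 0.0104 in edgeR. For both, stk replicate 1 was far the highest. The groups of CESA7 overlapped, with stk replicate 2 at 22.8 CPM and wild-type replicate 1 at 38.0 CPM. The storage gene CRU3 also passed with the block alone, at an adjusted p of 0.0292 in edgeR and with wild-type replicate 1 the only library high. Storage genes were near 0 in both replicate 2 libraries, in which the photosynthesis genes summed to 25451 CPM in stk and 15443 CPM in wild type. The part of these cell types in the photosynthesis values was not tested.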

How the data were processed

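Polyadenylated RNA of stage 17 funiculi was sequenced from 2 stk and 2 wild-type samples. The authors deposited raw read counts per gene, with a column per library, and the submitters' processing notes name featureCounts 1.6.3, STAR 2.7.0 and Trimmomatic 0.38 among their tools, with no roles. The build, the annotation and the counting rules for strand and multiply mapped reads were not given in these sources. Each of the 37051 loci had an entry in RefSeq's TAIR10.1 annotation, from which came names, exon lengths, overlaps and sequences.

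The whole table was fitted by edgeR 4.0.16 (R 4.3.3) with its quasi-likelihood test on genotype alone, after filterByExpr had kept 18092 genes. TMM factors ran from 0.96 to 1.068, and adjusted p-values (Benjamini-Hochberg) under 0.05 were called. The biological coefficient of variation was 0.721. P-values measure the spread between these samples. The SE was derived from the F statistic. CPM uses library totals, and TPM divides counts by merged exon length.

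Alternatives were DESeq2 1.42.0, limma-voom (limma 3.58.1), other scalings and filters, a replicate block and each library left out. Members and lists were chosen with earlier results of these data known. Genes named in full are, per role, the 3 with the highest mean level, the one with the lowest p and both extremes of fold change, and other members by their role; from other lists, the genes with the lowest p or the highest level, or a partner or regulator of the members. Motifs, promoters and the checks of overlap and of unique windows were chosen after values were seen. For sums, shares and ratios the planned permutation tests are replaced by values per library, because they cannot pass 0.05 at this size.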

Additional observations from a re-analysis of the deposited data

How the results depend on the processing

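No alternative called a photosynthesis gene, while the number of all genes called was 1 with edgeR, 160 with DESeq2, 37 with limma-voom, 275 without the filter, 169 with a replicate block and 0 at a mean of at least 5 CPM, where 0 of 44 photosynthesis genes were called and 2 had an unadjusted p under 0.05. Leaving out 1 library gave 5 to 198 called genes. Replicate numbers are shared by both genotypes with no stated pairing. Deviations of same-numbered libraries correlated at 0.245 across genes, and the replicate block left the median of the photosynthesis genes at 0.38, against 0.27 without it. DESeq2, limma-voom, RLE and upper-quartile scaling and both filters gave medians from 0.26 to 0.41. Some fold changes near 0 changed sign: with limma-voom LHCA6 was at 0.10, PSBO1 at 0.06, RBCS1A at 0.10 and GAPA at 0.03, and with the replicate block PSBO1 was at 0.04, RBCS1A at 0.08 and GAPA at 0.02. The cause was not tested.

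Leaving out each library in turn moved the median log2 fold change between -0.05 and 0.82 for all photosynthesis genes, between -0.20 and 0.70 for photosystem I antenna and between 0.28 and 0.89 for photosystem I subunits. The log2 ratio of mean summed CPM, stk over wild type, was 0.18 for all photosynthesis genes and moved between -0.19 and 0.67. It ranged from -0.29 to 0.70 for photosystem II antenna, from -0.03 to 0.66 for photosystem I antenna, from -0.09 to 0.61 for photosystem II subunits and from -0.56 to 0.63 for carbon fixation. The lowest of these values came without wild-type replicate 2 and the highest without wild-type replicate 1. Of the 27 genes that did not keep one sign over the fits, those named in full ranged from -0.68 to 0.61 for LHCB1.3, -0.02 to 1.21 for LHCB3, -1.17 to 1.04 for LHCB2.1, -0.21 to 0.63 for LHCB1.1, -0.01 to 0.63 for LHCA1, -0.19 to 1.02 for LHCA3 and -0.40 to 0.23 for LHCA6. The ranges were -0.54 to 0.65 for PSBO1, -0.71 to 2.08 for PSBO2, -0.30 to 0.92 for PSBR, -0.05 to 0.69 for PSBP1, -0.05 to 0.75 for PSAL and -0.36 to 1.05 for PSAD2. They were -0.54 to 0.74 for RBCS1A, -1.21 to 0.87 for RCA and -0.34 to 0.42 for GAPA. Of the others, RBCS1B ranged from -0.69 to 2.32, LHCB2.3 from -0.40 to 1.59, LHCB2.2 from -0.34 to 1.18, PRK from -0.80 to 0.57, LHCB4.3 from -0.88 to 0.30 and LHCA2 from -0.20 to 1.09. LHCB4.2, LHCB6, LHCA5, PSAG and GAPB stayed between -0.24 and 0.84.

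The number of libraries, 2 a genotype, limits the precision of each value, and depth limits LHCB1.4 and LHCA6.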
